A study of Rattus norvegicus with 9 samples.

Results

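Chromatin accessibility in the uninjured dorsal root ganglion (DRG) was described from the ATAC-seq libraries of 3 naive rats, which were all the naive ATAC-seq libraries among the 9 samples of the series. The rats were adult female Sprague-Dawley animals without surgery, and each library was made from nuclei of the lumbar DRGs of 1 rat. The other samples were 2 ATAC-seq libraries made after chronic constriction injury (CCI), which were not compared here, and 4 ChIP-seq samples for the histone mark H3K4me1, of which 2 were naive and 2 were from CCI rats. All 186719 accessible regions of the deposited table were kept. This catalogue was built by the authors from naive and CCI libraries together, so a region in it need not have been found in a naive rat.

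The DRG holds the cell bodies of the sensory neurons that carry touch, temperature and pain signals from the body to the spinal cord, together with satellite glia around the cell bodies, Schwann cells around the axons, blood vessels, connective tissue and immune cells. ATAC-seq uses the Tn5 transposase, which cuts where DNA is not covered by nucleosomes, so insertions are densest at promoters and enhancers in use. H3K4me1 is a mark of enhancers and of the flanks of active promoters.

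A large excess of weakly covered regions and a small set of very strong ones made up the naive landscape. The value of a region in each rat was its normalized reads, the number of reads divided by a size factor for the depth of the library. Naive rat 1 had 13248437 reads in the regions, naive rat 2 had 4633807 and naive rat 3 had 6382154. The median region had 31 reads in naive rat 1, 9 in rat 2 and 15 in rat 3, which was 9.66 ± 0.590 normalized reads (SD, n = 3). The mean over regions was 2.44 ± 0.274 times the median (SD, n = 3). Averaged over the 3 rats, 25% of the regions had 6.36 normalized reads or fewer, 10% had at least 46.2 and 1% had at least 251. The deposited values do not go below 1 read, and 5.81% of the regions stood at this value in naive rat 2, the shallowest library, against 0.0321% in naive rat 1. At least 10 reads in every rat were found in 80537 regions (43.1%), while 50 regions had 3 reads or fewer in every rat.

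The strongest 1% of regions, 1867 in all, held 15.3% of the normalized reads of naive rat 1, 16.8% of naive rat 2 and 15.7% of naive rat 3, or 15.9% ± 0.759 (SD, n = 3). They covered 3.96% of the accessible bases, with a median length of 1299 bp, and lay on all 21 chromosomes in 1060 windows of 1 Mb. The last region inside this class had a mean of 251.13 normalized reads and the first outside it had 251.07, so its border fell on a smooth slope. The strongest 10% held 56.1% ± 2.56 of the signal, and the weakest 50% held 13.4% ± 2.07 (SD, n = 3). When each rat was ranked by itself, 1489 regions (79.8%) were in the strongest 1% of all 3 rats, and 16025 (85.8%) were in the strongest 10% of all 3. Naive rat 2 had the highest value of the 3 rats in 1591 of the 1867 strongest regions, although its median over all regions was the lowest. Its total of normalized reads was also the highest, at 4633807 against 4328608.5 for naive rat 1 and 4193917 for naive rat 3. The part of library depth in this difference was not tested.

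The strongest region of the catalogue lay on chromosome 4 from 77447559 to 77448654 of the rn6 build. It had 3154 normalized reads in naive rat 1, 4913 in rat 2 and 4289.7 in rat 3, and its neighbours from 77449526 to 77449842 and from 77451802 to 77452171 were also among the 10 densest regions of at least 300 bp. The next region, on chromosome 19 from 56337633 to 56339321, has *Gas8* as its nearest gene in the study's list, a gene for a subunit of the dynein regulatory complex of cilia. It had 2719 normalized reads in naive rat 1, 3496 in rat 2 and 3478 in rat 3. Next came chromosome 2 from 198589605 to 198590463, with 1912, 2665 and 1705 normalized reads in naive rats 1, 2 and 3, and it did not overlap H3K4me1. Of the other 7 regions among the 10 strongest, 3 lay close together on chromosome 1 between 55703946 and 56038580 and 3 on chromosome 17 between 89434839 and 89461859. A region on chromosome 13 from 33504417 to 33505387, with *Tsn* as the nearest gene in the study's list, was among the 10 densest of at least 300 bp. *Tsn* encodes the nucleic acid binding protein translin, and the region had 960.3 normalized reads in naive rat 1, 1221 in rat 2 and 1120.4 in rat 3.

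Longer regions had more reads, and the longest also had more reads per base. The shortest region had 150 bp, the median region 245 bp and the longest 4028 bp, and together they covered 64.1 Mb. In the shortest of 5 equal length classes, with a median of 150 bp, the median region had 5.49 ± 0.637 normalized reads and 36.5 ± 4.06 normalized reads per kb (SD, n = 3). In the longest class, with a median of 675 bp, it had 43.6 ± 2.09 normalized reads and 63.4 ± 3.33 per kb (SD, n = 3). The 3 classes between them had 35.1 to 37.5 normalized reads per kb. The longest class stood apart per base, and it held 66.2% of the signal. Over all regions, the median was 43.0 normalized reads per kb in naive rat 1, 37.7 in rat 2 and 38.6 in rat 3.

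Regions that overlapped H3K4me1 by at least 1 bp had the larger signal in every rat. They numbered 58445 (31.3%), had a median length of 366 bp against 222 bp for the others, and held 66.7% ± 2.40 of the normalized reads (SD, n = 3) on 46.1% of the accessible bases. Their median was 18.6 normalized reads in naive rat 1, 20 in rat 2 and 19.1 in rat 3. The regions without the mark had medians of 8.82, 7 and 7.89 normalized reads in naive rats 1, 2 and 3. The ratio of these medians was 2.46 ± 0.375 (SD, n = 3) and above 1 in all 3 rats, with a two-sided p of 0.25 in an exact sign-flip permutation test, the smallest p that 3 rats can give. Counted per base, the ratio was 1.61 ± 0.216 (SD, n = 3). The H3K4me1 list pools naive and CCI samples and carries no values, so the strength of the mark in naive rats was not measured here.

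The share of regions with H3K4me1 rose with signal, slowly at first and steeply among the strongest regions. In 10 equal classes by the mean of the 3 rats, 13.4% of the weakest class overlapped the mark, 19.1% of class 5, 28.9% of class 7, 57.3% of class 9 and 86.6% of the strongest class. With classes made in each rat alone, the strongest class had 85.1% in naive rat 1, 86.8% in rat 2 and 86.3% in rat 3, and the weakest class had 14.0%, 13.4% and 13.1%. Signal class and length moved together, since the median length was 160 bp in the weakest class and 920 bp in the strongest. Within the shortest length class, 26.7% of the densest 25% of regions per base overlapped the mark, against 12.9% of the sparsest 25%. Within the longest length class these shares were 92.2% and 34.0%, but that class spans 442 to 4028 bp and does not hold length fixed. The shortest class spans only 150 to 166 bp, so there the relation was seen among regions of like length. With only H3K4me1 regions of at least 1 kb, the overlap was 4.94% in the weakest class and 74.1% in the strongest. Among the strongest 1% of regions 97.3% overlapped the mark, and the 50 that did not had a median distance of 6.31 kb to the nearest H3K4me1 region. Seen from the mark, 22.9% of the 211440 H3K4me1 regions held an accessible region.

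**Figure D1:**
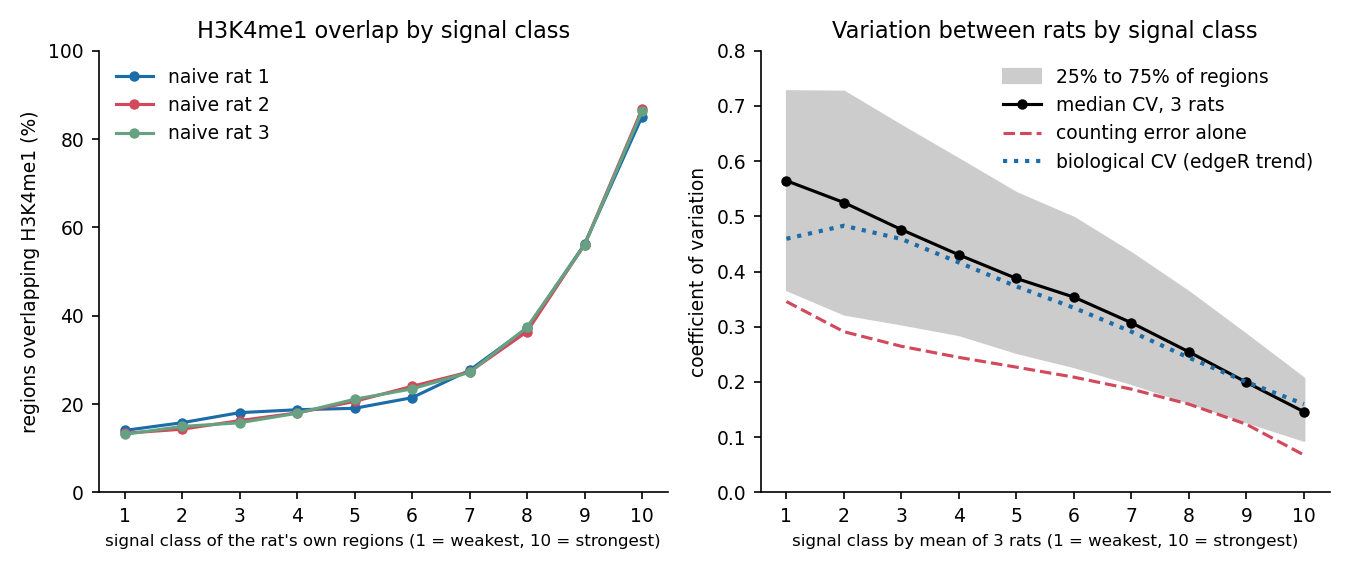
Left, percent of accessible regions that overlap H3K4me1 (y axis) in 10 equal classes of signal made within each naive rat (x axis, class 1 weakest); points are the 3 rats. Right, coefficient of variation between the 3 naive rats (y axis) in 10 equal classes by mean signal (x axis), with the median (points), the range from 25% to 75% of regions (grey), the median that counting error of independent reads alone gives (dashed) and the biological coefficient of variation from edgeR (dotted). Overlap in the strongest class was 85.1% to 86.8%, and the median coefficient of variation was 0.565 in the weakest class and 0.146 in the strongest.

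Accessible regions had similar density on the 20 autosomes and were sparse on the X chromosome. The density was 64.5 to 80.1 regions per Mb on the autosomes, lowest on chromosome 13 and highest on chromosome 20, and 34.6 regions per Mb on X. The X chromosome made up 5.76% of the span of the chromosomes, but held 2.97% of the regions and 2.41% ± 0.113 of the normalized reads (SD, n = 3). Of the strongest 1% of regions, 24 lay on X. Regions that were present on X were weaker than those on autosomes, slightly at the median and more among the strong ones. Their median was 9.80 normalized reads on X and 10.1 on autosomes in naive rat 1, 8 and 9 in rat 2, and 8.54 and 9.86 in rat 3. The ratio was 0.907 ± 0.0531 (SD, n = 3) and below 1 in every rat, with a two-sided p of 0.25 in the exact sign-flip permutation test. Among regions with H3K4me1 alone, the ratio was 0.811 in naive rat 1, 0.800 in rat 2 and 0.793 in rat 3. The 99% quantile was 190.2 ± 10.2 normalized reads on X and 254 ± 27.9 on autosomes (SD, n = 3). The share of regions with H3K4me1 was close on X and autosomes, at 32.4% and 31.3%.

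Chromosomes 10 and 12 had the most H3K4me1 regions per Mb, 112 and 118, and the largest shares of accessible regions with the mark, 45.8% and 45.6%. They also differed from the rest in how the rats compared. On the log2(normalized reads + 1) scale, the median deviation of naive rat 1 from the mean of the 3 rats was above 0 on the other 19 chromosomes, up to 0.15 on X, but was -0.03 on chromosome 10 and -0.05 on chromosome 12. Naive rat 2 had its highest deviations there, 0.08 on chromosome 10 and 0.09 on chromosome 12, and its lowest on X, -0.08. Naive rat 3 stayed between -0.06 and -0.03 on every chromosome. With the reads of each library drawn down at random by its size factor, which left 4195053 to 4633807 reads in the regions, the deviation of naive rat 1 was 0.14 on X and -0.06 on chromosome 12. The largest range of a rat over the chromosomes, 0.20, was 0.11 with a pseudocount of 10 and 0.14 among regions with a mean of at least 10 normalized reads.

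**Figure D2:**
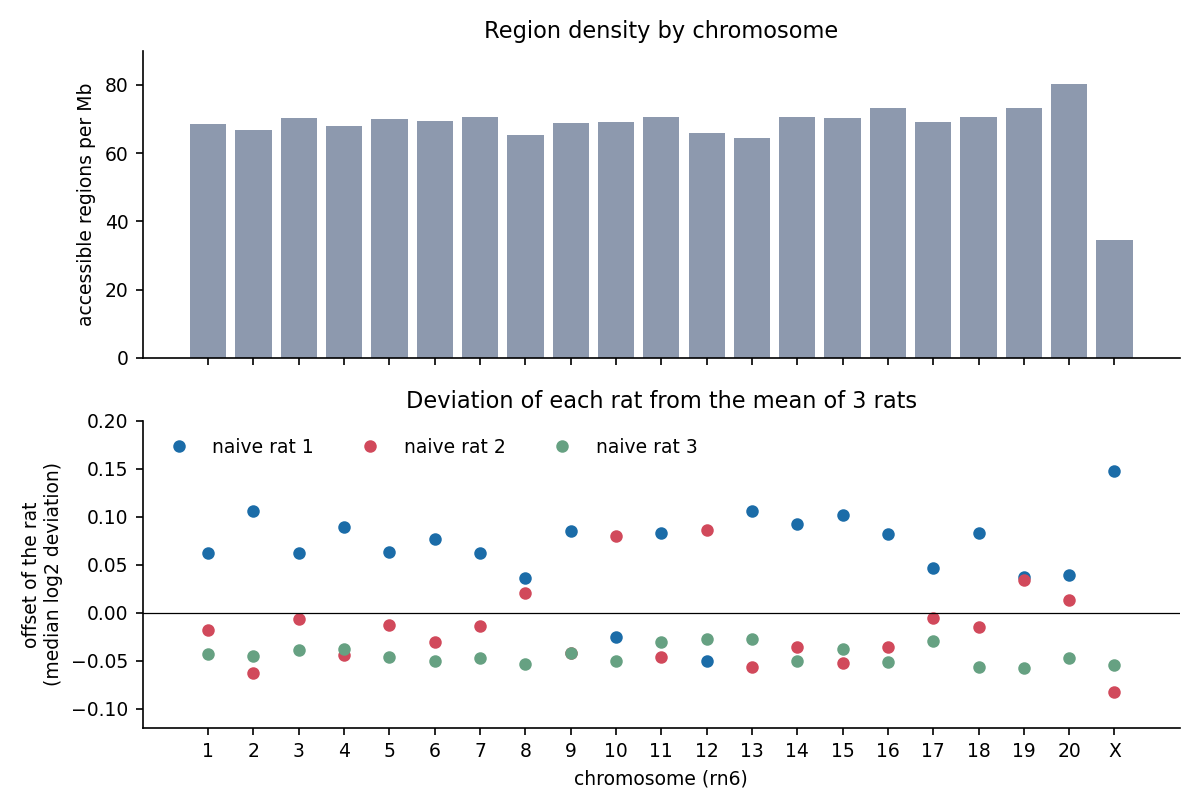
Top, accessible regions per Mb on each rn6 chromosome (bars), with X at 34.6 and the autosomes at 64.5 to 80.1. Bottom, median over the regions of a chromosome of the log2 deviation of each naive rat (points) from the mean of the 3 rats; naive rat 1 lies above 0 except on chromosomes 10 and 12, where naive rat 2 is highest.

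Windows of 1 Mb showed where accessible regions and their reads were concentrated. Copy number and mapping of repeated sequence were not tested for these windows or for the strongest single regions above. Each of the 2789 windows held at least 1 region, with a median of 66 regions and a range from the 5% to the 95% quantile of 28 to 107. The median window held 1219.6 normalized reads, and the top 1% of windows, 28 in all, held 5.57% ± 0.0616 of the signal (SD, n = 3) and 190 of the strongest 1% of regions. The window with the most signal, on chromosome 1 from 55 to 56 Mb, had 119 regions and 23368 normalized reads in naive rat 1, 21902 in rat 2 and 22313 in rat 3, which was 18.5 times the median window. For a region in it, the nearest gene in the study's list is *Vom2r9*, of the vomeronasal receptor family. Its 63 regions with a mean of at least 50 normalized reads had a median coefficient of variation of 0.0705, so its high signal was very alike in the 3 rats. The window in second place, on chromosome 17 from 89 to 90 Mb, differed widely between the rats, with 23199 normalized reads in naive rat 1, 10481 in rat 2 and 15812 in rat 3.

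The next windows by signal had many regions. On chromosome 7, the window from 12 to 13 Mb had 158 regions, 81.0% of them with H3K4me1, and 10978 normalized reads in naive rat 1, 13779 in rat 2 and 10906 in rat 3. The study's lists name *Gpx4*, a glutathione peroxidase that reduces lipid peroxides, *Cirbp*, a cold-inducible RNA-binding protein, and *Mbd3*, a subunit of a nucleosome remodelling complex, for regions in it. The window before it, from 11 to 12 Mb, had 10036 normalized reads in naive rat 1, 12772 in rat 2 and 9898 in rat 3. The lists name *Dot1l*, a histone methyltransferase, and *Nfic*, a transcription factor of the nuclear factor I family, for regions there. A window on chromosome 16 from 21 to 22 Mb had 157 regions and 10810 normalized reads in naive rat 1, 10880 in rat 2 and 10562 in rat 3. The windows with the most regions were on chromosome 9 from 8 to 9 Mb, with 166, and at the start of chromosome 2, with 163. Of their regions, 28.9% and 13.5% overlapped H3K4me1 against 31.3% of all regions, and their signal was 5.49 and 4.81 times the median window. The next windows by number of regions, those on chromosomes 7 and 16 above, had 81.0% and 40.8%, so the H3K4me1 share differed widely among windows with many regions.

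The 3 rats were most alike where the signal was strong. The coefficient of variation, the SD over the mean of the normalized reads of a region in the 3 rats, had a median of 0.332 over all regions. It was 0.565 in the weakest signal class and 0.146 in the strongest, where 72.7% of regions were below 0.2. Poisson counting of independent reads at these depths would give medians of 0.346 in the weakest class and 0.0677 in the strongest. The measured spread was 1.63 and 2.16 times this counting error, and 1.59 to 1.80 times in the classes between. Reads were paired, so both ends of a fragment may be counted and reads may not be independent. How much of the excess this makes up was not tested, so the excess is not a measure of differences between rats alone. Regions with H3K4me1 had a median coefficient of variation of 0.231 and those without it 0.387. Regions with the mark also had the larger signal, and the groups were not compared at like signal. The biological coefficient of variation from edgeR, which removes the counting error of independent reads only, was 0.296 over all regions. It was 0.459 in the weakest class, highest in class 2 at 0.483 and 0.160 in the strongest. With regions of few reads filtered out it was 0.177 over 87597 regions. Pearson's r of log2(normalized reads + 1) across regions, which are not replicates, was 0.838 between naive rats 1 and 2, 0.851 between 1 and 3 and 0.811 between 2 and 3. Of the regions in the strongest class, 98.6% to 99.5% were within 2-fold between any pair of rats, against 74.5% to 82.8% of all regions.

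Among the 17428 regions with a mean of at least 50 normalized reads, 73.6% had a coefficient of variation below 0.2 and 45 had one above 0.5. The most even of them (chromosome 7, 22323285 to 22323885) had 271.8 normalized reads in naive rat 1, 271 in rat 2 and 271.4 in rat 3. The most uneven, on chromosome X from 150612493 to 150613671, had 25.8 in naive rat 1, 133 in rat 2 and 11.2 in rat 3. A region on chromosome 14 from 101991404 to 101992670 was also high in naive rat 2 alone, with 45.1, 247 and 42.7 normalized reads in naive rats 1, 2 and 3. On chromosome 1, a region from 148651780 to 148653211 was high in naive rat 1 alone, with 139.8 normalized reads against 25 in naive rat 2 and 24.97 in naive rat 3. Of the 45 uneven regions, naive rat 2 was highest in 30, rat 3 in 10 and rat 1 in 5, and 28 overlapped H3K4me1 (62.2%, against 87.7% of the 17428). Naive rat 2 was also highest in 11909 of all 17428, rat 3 in 2872 and rat 1 in 2647, so the uneven regions did not stand out in which rat was highest.

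Part of this variation came in blocks of neighbouring regions that moved together in a rat. The blocks were looked for after the values had been seen, in windows of 100 kb with at least 5 regions of a mean of at least 20 normalized reads. Of 2424 such windows, 22 had a median deviation of a rat from the mean of the 3 rats beyond 0.5 on the log2 scale. These deviations are not centred on 0, since their median over the 2424 windows was 0.16 in naive rat 2, -0.05 in rat 1 and -0.08 in rat 3, so a high rat 2 is the usual state of such windows. The largest was on chromosome 16 from 64.9 to 65 Mb, where all 11 regions were highest in naive rat 2, with medians of 20.6 normalized reads in naive rat 1, 67 in rat 2 and 13.8 in rat 3. On chromosome 3 from 143.8 to 143.9 Mb, all 7 regions were lowest in naive rat 2, with a median of 21 normalized reads against 35.3 in naive rat 1 and 52.6 in naive rat 3. None of those 7 overlapped H3K4me1. On chromosome 1 from 11.9 to 12 Mb, the 10 regions had medians of 141.8 normalized reads in naive rat 1, 547 in rat 2 and 237 in rat 3. The nearest gene in the study's list for a region there is *Rn5-8s*, a ribosomal RNA gene.

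Among the 10 windows of 100 kb with the largest deviations, most signal lay in a block of adjoining windows on chromosome 17 from 89.3 to 89.5 Mb. Its 26 regions with a mean of at least 20 normalized reads summed to 22029.6 normalized reads in naive rat 1, 9286 in rat 2 and 14623 in rat 3. In 23 of the 26, naive rat 1 was highest and naive rat 2 lowest. The exceptions lay at the start of the block, from 89328206 to 89349758, where naive rat 2 was above naive rat 1. The ends of the block are those of the windows and not of the pattern. The median ratio of naive rat 1 to naive rat 2 was 2.40 (SD over regions 0.597) and that of naive rat 3 to naive rat 2 was 1.56 (SD over regions 0.423). In the other 9 such regions of the same 1 Mb window these ratios were 0.929 and 1.05. The windows of the block were picked for their large deviations, so a contrast with the rest was built into the choice. The block held 13 of the strongest 1% of regions, and 14 of its 26 regions overlapped H3K4me1. Genotype, copy number and mapping of repeated sequence were not tested for these blocks.

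**Figure D3:**
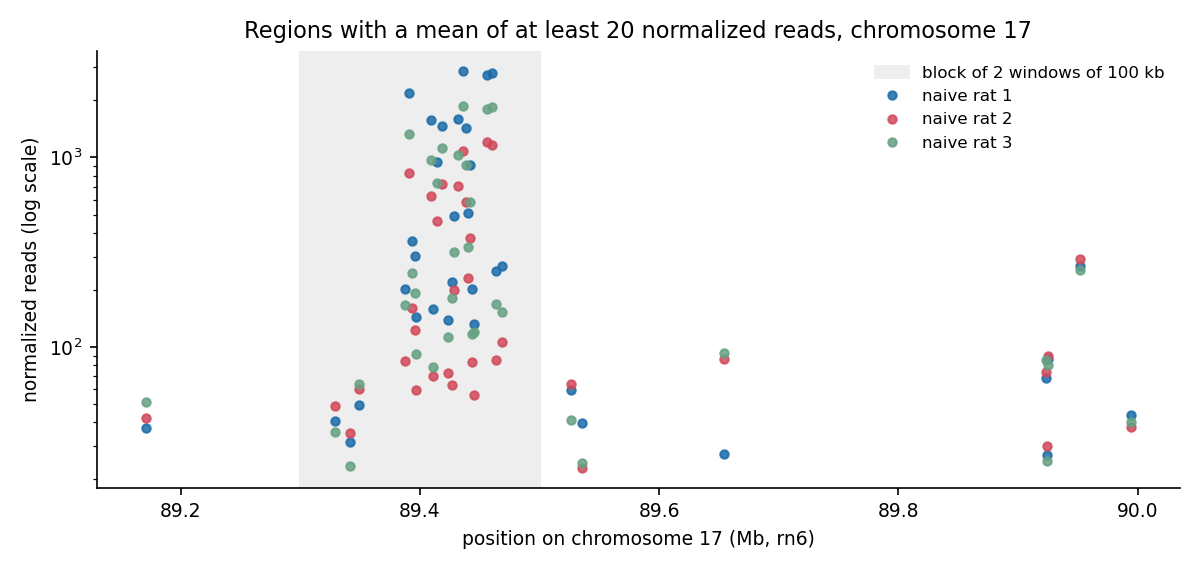
Normalized reads (y axis, log scale) of each accessible region with a mean of at least 20 on chromosome 17 from 89 to 90 Mb (x axis, rn6 position in Mb) in the 3 naive rats (points), with the block from 89.3 to 89.5 Mb shaded. Inside the block naive rat 1 was highest and naive rat 2 lowest in 23 of 26 regions, against 2 of the 9 regions outside it. The block was picked for its large deviations.

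Regions of marker genes could be named only through the study's lists of promoter and H3K4me1 regions that differ after CCI, so they are a selected sample. A promoter region lies at the start of its gene, whereas an H3K4me1 region is named only by its nearest gene, at any distance, and its link with that gene was not tested. In a whole ganglion, fewer cells of a type and less accessibility per cell cannot be told apart. Of 100 marker genes in 7 groups, 35 had at least 1 region in the lists, 47 regions in all, and the others were not analysed here. The lists were read as 2043 regions, and 1 list was held in part. A gene without a region here may therefore have one in the full list. Reads per base are used below to set regions side by side, with a percentile among all 186719 regions. All 47 overlap H3K4me1, and their median per-base percentile was 87.3, so a group near that level does not stand out from the marker regions as a whole. For Schwann cells, 2 of 9 genes had a region. The region nearest to *Cnp*, a myelin enzyme gene, had 155.9 normalized reads in naive rat 1, 191 in rat 2 and 134.1 in rat 3, or 107 per kb (percentile 93.3). That nearest to *Mbp*, the gene of myelin basic protein, had 87.9, 90 and 80.2 normalized reads in naive rats 1, 2 and 3, also 107 per kb (percentile 93.3). Both were only modestly above the level of the marker regions as a whole.

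For vessel and connective tissue, the 7 regions had a median of 118 normalized reads per kb (percentile 94.4). The region nearest to *Pecam1*, an adhesion molecule of endothelial cells, had 144.1 normalized reads in naive rat 1, 158 in rat 2 and 155.1 in rat 3. That nearest to *Col1a2*, a collagen chain of fibroblasts, had 183.0, 201 and 157.1 normalized reads in naive rats 1, 2 and 3, or 153 per kb. The region nearest to *Egfl7*, which is secreted by endothelial cells, had the fewest normalized reads of the group, 11.1, 7 and 6.57 normalized reads in naive rats 1, 2 and 3. For satellite glia, the 3 regions had a median of 78.2 normalized reads per kb (percentile 88.0). Their nearest genes were *Slc1a3*, a glutamate transporter, *Ednrb*, an endothelin receptor, and *Sox10*, a transcription factor of glia. The *Slc1a3* region had 46.4 normalized reads in naive rat 1, 40 in rat 2 and 34.8 in rat 3.

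Neuronal markers spanned a wide range. The 13 regions of sensory neuron markers other than those of nociceptors had a median of 47.0 normalized reads per kb (percentile 65.1). The densest was the promoter of *Etv1*, a transcription factor of proprioceptive and other sensory neurons, with 238.8 normalized reads in naive rat 1, 282 in rat 2 and 232.0 in rat 3, or 202 per kb. A region nearest to *Tubb3*, the neuronal tubulin, had 158.5, 201 and 177.4 normalized reads in naive rats 1, 2 and 3. At the other end, a region nearest to *Runx3*, a transcription factor of proprioceptors, on chromosome 5 from 153481706 to 153481974, had 4 reads in naive rat 1 and 1 read in each of the other rats, while a further *Runx3* region from 153557356 to 153557941 had 55, 20 and 29 reads.

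The nociceptor markers with a region were *Scn11a*, *Ret*, *Htr3b* and *Vgf*, 4 of 19, with a median of 31.2 normalized reads per kb (percentile 30.1). By normalized reads without regard to length, the median percentile of this group was higher, 56.6. The promoter of *Scn11a*, which encodes a sodium channel of nociceptors, had 7.51 normalized reads in naive rat 1, 6 in rat 2 and 12.5 in rat 3, or 23.6 per kb (percentile 11.7). The promoter of *Htr3b*, a subunit of a serotonin-gated channel, had 11.4, 12 and 6.57 normalized reads in naive rats 1, 2 and 3, or 22.7 per kb (percentile 10.1). The promoter of *Ret*, the receptor kinase for the glial cell line-derived neurotrophic factor family, had 11.1, 10 and 12.5 normalized reads in naive rats 1, 2 and 3, or 38.8 per kb (percentile 48.6). These rested on 6 to 35 reads per rat, so the 3 promoters could not be ranked against each other with certainty. The region nearest to *Vgf*, a neuropeptide precursor, had 25.8 normalized reads in naive rat 1, 54 in rat 2 and 46 in rat 3. The 5 regions of immune markers had a median of 36.7 normalized reads per kb (percentile 43.5, or 70.4 by normalized reads). The promoters of *Ncf1* and *Ncf4*, subunits of the phagocyte oxidase, had 31.1 and 36.7 normalized reads per kb, that of *Plek*, pleckstrin of blood cells, had 18.4, and that of the chemokine receptor *Cxcr4* had 158. A further region, nearest to *Cxcr4*, had 115 normalized reads per kb (percentile 94.1). The group of immediate early and injury genes had 13 regions with a median of 79.2 normalized reads per kb (percentile 88.3). The promoter of *Stat3*, a transcription factor of cytokine signalling, had 247.7 normalized reads in naive rat 1, 293 in rat 2 and 287.2 in rat 3, or 202 per kb, and was the densest of the group. Regions of the same gene could differ, with *Cebpb* regions at 113 and 20.3 normalized reads per kb (percentiles 94.0 and 6.46). The 4 *Socs3* regions had 105, 79.2, 75.9 and 22.9 normalized reads per kb, and the *Gadd45g* region had 32.4 (percentile 32.3).

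Most promoters of the study's list were strong in naive rats. Of its 476 regions, 409 (85.9%) were in the strongest 10% of all regions and 56 in the strongest 1%, with a median of 121.7 normalized reads in naive rat 1, 135 in rat 2 and 124.2 in rat 3. The strongest was *Crot*, a peroxisomal carnitine acyltransferase, with 796.9 normalized reads in naive rat 1, 940.0 in rat 2 and 1116 in rat 3. *Tdrd3*, *RGD1562890*, *Eny2*, *Ripk2*, *Rnf5*, *Mkks*, *Pank1*, *Spcs3* and *Rab40c* followed, with means of 413 to 572 normalized reads and coefficients of variation of 0.0266 to 0.176. Looked at after the values had been seen, the 5 weakest of the 476 were *Plek*, *Scn11a*, *Htr3b*, *Ncf1* and *Ret*, with means of 5.81 to 11.2 normalized reads. They were also short, 289 to 441 bp against a median of 965 bp for the list, and per base they ranged from percentile 4.46 to 48.6 of all regions. All 5 are among the 7 listed promoters of nociceptor or immune markers, 3 and 4 in number. The other 2 had more normalized reads, with *Ncf4* at percentile 70.4 and *Cxcr4* at percentile 94.7 by normalized reads, although per base *Ncf4* was at 43.5 and below *Ret*. The list was chosen for a difference after CCI, and the paper reports a more accessible *Scn11a* promoter after CCI. A low naive value may thus follow from how the list was made. Marker genes were also chosen with earlier results known, so nothing about nociceptor or immune promoters in general is drawn from this.

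RefSeq promoter sequences of the GRCr8 build, 250 bases before to 50 after the start of the gene, were found for 388 of the 476 (81.5%). The mean number of CpG was taken where a symbol had several. The 388 held a median of 24.8 CpG dinucleotides, against 7 over all 33469 RefSeq promoters. In 3 equal classes by naive signal, the median number of CpG was 20 among the 129 weakest, 24 among the next 129 and 27 among the 130 strongest. The GC box GGGCGG, searched on both strands, was present in 64.3%, 65.1% and 79.2% of these classes, and in 33.1% of all promoters. The motif TATAAA, also on both strands, was present in 8.53%, 4.65% and 5.38% of the classes and in 14.2% of all promoters. For a listed gene with several promoters, a motif in any of them counted, whereas each of all promoters counted singly. The shares of the classes can therefore be raised relative to those of all promoters, by an amount that was not measured. These are descriptions of promoters that the study chose for a difference after CCI, and the RefSeq start of a gene need not be the start inside its accessible rn6 region.

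The 250 bases before the start of a gene are shown for the nociceptor promoters, which were among the 5 weakest of the list, and for the 6 of the 10 strongest listed promoters with a RefSeq sequence under their symbol, with the GC box on either strand in capitals. Among all RefSeq promoters, 30.5% hold a GC box in these 250 bases, and the median number of CpG is 5. *Scn11a* (chr8:128444719-128444968 on the minus strand of GRCr8) has 4 CpG and no GC box, *Ret* (chr4:153040557-153040806 on the minus strand) has 25 CpG and no GC box, and *Htr3b* (chr8:58204940-58205189 on the minus strand) has 14 CpG and 1 GC box. *Crot* (chr4:26052874-26053123 on the plus strand) has 25 CpG and 2 GC boxes, *Rnf5* (chr20:4149897-4150146 on the plus strand), a ubiquitin ligase, has 13 CpG and 1 GC box, and *Mkks* (chr3:144672832-144673081 on the minus strand), a chaperonin-like protein, has 16 CpG and no GC box. *Pank1* (chr1:241806464-241806713 on the minus strand), a pantothenate kinase, has 6 CpG and no GC box, *Spcs3* (chr16:44038171-44038420 on the plus strand), which encodes a subunit of the signal peptidase, has 33 CpG and 1 GC box, and *Rab40c* (chr10:15440660-15440909 on the minus strand), a small GTPase, has 25 CpG and 4 GC boxes. *Ret* was rich in CpG and yet among the weakest of the listed promoters. *Pank1* was strong with 6 CpG, close to the median of 5 over all RefSeq promoters. Neither *Pank1* nor *Mkks* holds a GC box here, so CpG number, GC box and signal did not go together in each promoter.
Scn11a: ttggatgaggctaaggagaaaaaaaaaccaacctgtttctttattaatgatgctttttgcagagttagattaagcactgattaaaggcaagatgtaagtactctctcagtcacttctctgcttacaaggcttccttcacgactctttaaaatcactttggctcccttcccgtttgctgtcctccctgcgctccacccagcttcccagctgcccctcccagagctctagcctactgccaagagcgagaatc
Ret: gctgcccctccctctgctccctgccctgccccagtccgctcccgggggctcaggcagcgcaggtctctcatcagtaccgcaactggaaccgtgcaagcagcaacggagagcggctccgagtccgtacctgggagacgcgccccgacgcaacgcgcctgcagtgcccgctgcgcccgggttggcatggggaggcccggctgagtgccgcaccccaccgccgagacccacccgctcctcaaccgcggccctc
Htr3b: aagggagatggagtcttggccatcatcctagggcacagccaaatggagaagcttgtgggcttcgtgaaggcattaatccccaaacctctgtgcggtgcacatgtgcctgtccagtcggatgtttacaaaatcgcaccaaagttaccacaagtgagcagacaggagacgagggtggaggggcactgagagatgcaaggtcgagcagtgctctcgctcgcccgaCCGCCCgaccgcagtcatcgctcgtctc
Crot: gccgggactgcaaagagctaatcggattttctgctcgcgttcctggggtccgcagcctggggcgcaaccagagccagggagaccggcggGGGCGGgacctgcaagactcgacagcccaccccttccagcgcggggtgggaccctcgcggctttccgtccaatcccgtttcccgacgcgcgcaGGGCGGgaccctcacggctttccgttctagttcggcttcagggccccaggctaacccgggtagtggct
Rnf5: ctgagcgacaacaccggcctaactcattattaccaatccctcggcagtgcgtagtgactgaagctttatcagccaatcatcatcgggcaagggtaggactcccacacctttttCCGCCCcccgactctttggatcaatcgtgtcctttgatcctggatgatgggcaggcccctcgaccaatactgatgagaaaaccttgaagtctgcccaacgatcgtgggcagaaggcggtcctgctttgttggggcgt
Mkks: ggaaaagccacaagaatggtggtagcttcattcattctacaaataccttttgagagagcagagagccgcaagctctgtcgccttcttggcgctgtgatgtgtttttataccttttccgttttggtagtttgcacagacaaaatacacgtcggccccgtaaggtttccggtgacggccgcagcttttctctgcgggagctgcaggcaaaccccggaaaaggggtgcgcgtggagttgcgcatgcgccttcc
Pank1: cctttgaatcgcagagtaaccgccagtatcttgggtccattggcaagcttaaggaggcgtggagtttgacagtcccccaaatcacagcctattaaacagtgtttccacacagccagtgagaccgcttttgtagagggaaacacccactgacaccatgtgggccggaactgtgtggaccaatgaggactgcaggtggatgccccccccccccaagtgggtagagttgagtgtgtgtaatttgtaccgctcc
Spcs3: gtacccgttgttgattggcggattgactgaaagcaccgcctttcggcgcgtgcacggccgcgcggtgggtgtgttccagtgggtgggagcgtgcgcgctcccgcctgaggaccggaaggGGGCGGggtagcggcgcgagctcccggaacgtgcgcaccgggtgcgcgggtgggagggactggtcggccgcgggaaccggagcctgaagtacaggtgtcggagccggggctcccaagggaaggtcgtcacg
Rab40c: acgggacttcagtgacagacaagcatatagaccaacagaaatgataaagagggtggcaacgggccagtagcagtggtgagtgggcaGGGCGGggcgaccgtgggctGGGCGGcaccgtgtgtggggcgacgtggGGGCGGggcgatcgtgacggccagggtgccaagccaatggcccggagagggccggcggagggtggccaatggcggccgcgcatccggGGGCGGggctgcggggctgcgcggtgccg

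The study cloned 7 pieces in front of a reporter gene. Their matched accessible regions ranged from percentile 2.90 to 96.6 of naive normalized reads, and all 7 overlapped H3K4me1, which the study's choice of candidate regions required. The regions on chromosomes X, 8 and 10 overlapped the cloned piece with other ends, and the rest had its coordinates. The strongest, on chromosome 3 from 143254480 to 143255452 and nearest to *Cst3*, the gene of the protease inhibitor cystatin C, had 154.2 normalized reads in naive rat 1, 140.0 in rat 2 and 105.8 in rat 3. The region nearest to *Tll1*, a metalloprotease, had 63.4, 89 and 59.1 normalized reads in naive rats 1, 2 and 3, and that nearest to *Hmgn5*, a nucleosome-binding protein, had 62.4, 55 and 55.2. The *Hmgn5* values are for the whole accessible region of 578 bp, while the cloned piece ran only from 79908333 to 79908465 on chromosome X. The region nearest to *Nptx2*, a pentraxin of synapses, on chromosome 12 from 12086634 to 12086856, had 8.17 normalized reads in naive rat 1, 8 in rat 2 and 3.94 in rat 3, or 30.1 per kb. The weakest overlapped the cloned piece on chromosome 8 from 128446211 to 128446622 and had 13 reads in naive rat 1, 4 in rat 2 and 2 in rat 3, of which the counts in rats 2 and 3 are close to the smallest count of 1 read.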

How the data were processed

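For ATAC-seq, the authors trimmed paired reads, used Bowtie2 for alignment to rn6, filtered out duplicates and poorly mapped reads, centred a fragment of fixed length on every Tn5 insertion, found regions with MACS2, and counted over the union of regions of naive and CCI libraries. The submitters' processing notes also name CASAVA 1.8.2 and limma. The deposited signal is reads divided by a size factor for uniquely aligned reads, relative to naive rat 2. H3K4me1 regions were deposited as 1 merged list of positions.

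Groups followed the sample labels, since the text of the paper varies on the numbers of ATAC-seq libraries. Its results give 2 naive and 3 CCI, and its library methods give 3 of each. The 2 CCI columns of the table were not used. Whole reads were recovered from the smallest steps between the values, with size factors of 3.06, 1 and 1.52 in naive rats 1, 2 and 3, and 100% of the values were within 0.1 of a whole number of reads. Overlaps were found with bedtools 2.31.1. Chromosome spans ended at the last region of either list, because a genome of the rn6 build was not used here. Analyses used Python 3.11.15, numpy 2.4.6 and pandas 2.3.3, and figures matplotlib 3.10.9. Dispersion was estimated with edgeR 4.0.16 in R 4.3.3 with an intercept only, and no groups were compared with it. Counting error was computed for Poisson reads at the size factors. On simulated data, the common dispersion was tested, but not its trend over the signal classes. The reads simulated for dispersion lacked the lower limit of 1 read. Counting error was tested on simulated reads in some signal classes, among them the strongest but not the weakest.

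Named regions were the 10 strongest, the 10 densest of at least 300 bp, the 5 windows with most reads and with most regions, the 5 with the largest and smallest coefficient of variation at a mean of at least 50 normalized reads, those of marker genes, the 7 cloned regions and the 10 strongest listed promoters. Of the 2043 regions read from the study's lists, of which 1 list was held in part, 2005 were matched by coordinates and 38 by the largest overlap. Members and lists were chosen with earlier results of these data known. Alternatives were other overlap, length and signal minimums, reads per base, scalings, pseudocounts, window sizes, reads drawn down at random by size factor and leaving out each rat.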

Additional observations from a re-analysis of the deposited data

How the results depend on the processing

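No paired analysis was possible between groups of rats, because the results come from 1 group of 3 rats, and the H3K4me1 and X ratios were formed within each rat. Of 59 alternatives over 11 results, 34 counted as the same and 25 as moved. For the H3K4me1 and X ratios only the direction was judged, and 0 alternatives reversed it. For the others the yardstick was the SD over rats, over pairs of rats or over values with a rat left out. Chromosome density had no yardstick, so its alternatives counted as moved whatever their size. The largest range of a rat over the chromosomes, 0.198, counted as the same at 0.110 with a pseudocount of 10. The share of signal in the strongest 1% of regions was 13.9% ranked by reads per base and 11.03% among regions with a mean of at least 10 normalized reads. Without the 2 windows of 1 Mb with most signal, an alternative chosen after seeing the data, it was 15.6%. H3K4me1 overlap of the strongest class was 82.0% by reads per base, 81.0% at an overlap of 50% of the region and 74.1% with H3K4me1 regions of at least 1 kb. That of the weakest class was 14.9%, 10.7% and 4.94%, and 12.8% to 13.9% when each rat was left out. The H3K4me1 signal ratio stayed above 1, from 1.61 by reads per base to 3.64 with H3K4me1 regions of at least 1 kb, and the X ratio stayed below 1, from 0.878 to 0.955. The highest chromosome density over the lowest, 2.31, was 2.49 in covered bases and 2.93 among regions with a mean of at least 10. The top 1% of windows held 6.65% in windows of 500 kb and 4.68% in windows of 2 Mb. The median coefficient of variation was 0.228 at a mean of at least 10, 0.365 with reads drawn down by size factor and 0.242 to 0.293 with a rat left out, where pairs give smaller medians by construction. The biological coefficient of variation was 0.177 after filtering and 0.278 to 0.312 with a rat left out. The lowest correlation was 0.775 with a pseudocount of 0.1, 0.903 with 10, 0.872 at a mean of at least 10 and 0.692 as Spearman's rho. For the other shifts the cause was not tested. Depth limits single weak regions, since naive rat 2 had a median of 9 reads, and 1 read and none cannot be told apart.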

Other observations

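Over windows of 1 Mb, the median deviation of a rat from the mean of the 3 rats had an SD of 0.13 on the log2 scale in naive rat 1, 0.14 in rat 2 and 0.08 in rat 3. The largest among windows with at least 5 regions was on chromosome 2 from 162 to 163 Mb, where the 28 regions had a median deviation of 0.49 in naive rat 1, -0.73 in rat 2 and 0.27 in rat 3. On X from 120 to 121 Mb, the 14 regions had a median deviation of 0.71 in naive rat 1, -0.19 in rat 2 and -0.08 in rat 3. On chromosome 12 from 20 to 21 Mb, the 20 regions had -0.60 in naive rat 1, 0.26 in rat 2 and 0.45 in rat 3.

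The 50 regions with 3 reads or fewer in every naive rat had a median length of 150 bp, and 14.0% of them overlapped H3K4me1.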
